A study of Mus musculus with 12 samples.

Results

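The 49 genes described here encode the proton pump of the lysosome and the enzymes, membrane proteins and regulators that work inside it. They were chosen by symbol from a list drawn up with earlier results of these data known. All 49 were found among the 55401 gene identifiers of the culture tables and the 51826 of the forelimb table. The list holds 16 genes of the vacuolar H+-ATPase (V-ATPase), 22 lysosomal enzymes, called hydrolases below although 1 of them, Hgsnat, is an acetyltransferase, and 11 other genes, named below as membrane, transport and regulator genes. The mouse libraries came from a study of Impdh2, which encodes an enzyme of guanine nucleotide synthesis. Bone marrow cells of wild-type mice (WT) and of mice lacking Impdh2 in the myeloid lineage (LysM-cKO) were cultured towards osteoclasts, and each genotype was sampled under the titles R0D3 and R40D3. Forelimbs were taken from WT embryos and from embryos lacking Impdh2 in limb mesenchymal progenitors (Prx-cKO) at E12.5, a stage of early limb skeletal patterning. Each of the 6 groups held 2 libraries.

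All cultures shared 3 days with L929 cell supernatant, a source of the survival factor M-CSF (equal to 20 ng/ml), and the protocol then describes 40 ng/ml of RANKL, the cytokine that drives osteoclast formation. The labels do not spell out R0D3 and R40D3 and give every culture the same treatment, so the titles serve as names only. LysM-driven Cre acts in monocytes, macrophages and granulocytes, and Prx-driven Cre acts in limb mesenchyme, so blood, endothelial and skin cells of the forelimb keep the gene. Nothing in the labels says whether replicates came from separate animals or cultures, and p-values measure only the spread between these libraries, which may be technical.

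The V-ATPase has a cytosolic V1 sector, which splits ATP, and a membrane V0 sector, which carries protons. In most cells it acidifies lysosomes so that hydrolases can work. In the osteoclast, lysosomes fuse with the membrane facing bone, and the same pump and enzymes act outside the cell to dissolve mineral and digest matrix. Several subunits are encoded by more than 1 gene, and the a3 subunit (Tcirg1) and the d2 subunit (Atp6v0d2) are known for their part in bone resorption. The transcription factor TFEB binds E-box sequences near many lysosomal genes.

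The 8 culture libraries held 16009146 to 19221865 counts and the 4 forelimb libraries 28892215 to 69466572. Impdh2 was measured at 22.3 to 28.2 CPM, which are read counts scaled to a common library total, in the 4 WT cultures and at 7.03 to 8.38 CPM in the 4 LysM-cKO cultures. In the forelimb it was 260 and 272 CPM in WT against 170 and 199 CPM in Prx-cKO. All 8 cultures are labelled osteoclasts, but 9 osteoclast marker genes summed to 54.6 to 108 CPM in R0D3 against 12450 to 37400 CPM in R40D3, whereas 9 macrophage markers summed to 8356 to 11850 CPM in every culture. Both replicate 2 libraries of LysM-cKO stood apart in stromal markers, with sums of 496 CPM (R0D3) and 423 CPM (R40D3) against 1188 to 1589 CPM in the other 6 cultures. All 49 genes passed the filter on low counts in both tissues.

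Sequences upstream of the genes are shown for 4 members whose 250 bases before the RefSeq start hold the E-box CACGTG and lie outside the GENCODE gene model or overlap it by at most 4 bases. They were picked after their motifs and values were seen, and they span members that rose in R40D3 (Atp6v0b, Glb1, Igf2r) and 1 that did not pass the test (Lamp1). Sequences are from RefSeq on GRCm38.p6, written 5′ to 3′ on the strand of the gene, with each CACGTG in capitals together with the flanking bases of longer palindromes such as TCACGTGA. The last such stretch in Igf2r belongs to a longer palindrome that is cut by the end of the window. The windows are chr4:117887330-117887579 (minus strand) for Atp6v0b, chr9:114400828-114401077 (plus strand) for Glb1, chr17:12769707-12769956 (minus strand) for Igf2r and chr8:13158911-13159160 (plus strand) for Lamp1.
Atp6v0b: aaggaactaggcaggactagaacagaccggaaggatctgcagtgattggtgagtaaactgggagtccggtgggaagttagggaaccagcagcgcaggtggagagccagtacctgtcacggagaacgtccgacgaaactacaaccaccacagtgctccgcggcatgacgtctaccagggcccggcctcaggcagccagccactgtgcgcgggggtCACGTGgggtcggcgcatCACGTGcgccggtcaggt
Glb1: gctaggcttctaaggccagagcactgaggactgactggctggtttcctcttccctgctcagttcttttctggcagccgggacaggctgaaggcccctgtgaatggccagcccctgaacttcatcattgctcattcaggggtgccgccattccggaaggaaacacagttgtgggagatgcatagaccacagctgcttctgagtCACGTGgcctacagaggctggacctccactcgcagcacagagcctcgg
Igf2r: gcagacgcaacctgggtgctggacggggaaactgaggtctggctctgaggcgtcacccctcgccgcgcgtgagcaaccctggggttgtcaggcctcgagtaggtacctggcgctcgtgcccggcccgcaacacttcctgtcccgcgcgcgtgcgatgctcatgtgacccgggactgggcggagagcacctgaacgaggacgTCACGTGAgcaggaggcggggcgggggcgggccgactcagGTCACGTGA
Lamp1: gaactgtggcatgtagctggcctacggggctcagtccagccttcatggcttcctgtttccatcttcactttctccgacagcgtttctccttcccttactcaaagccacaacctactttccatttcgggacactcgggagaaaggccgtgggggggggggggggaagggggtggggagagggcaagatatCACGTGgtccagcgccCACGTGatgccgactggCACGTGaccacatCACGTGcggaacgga
The Lamp1 window holds 4 copies of CACGTG, Atp6v0b and Igf2r hold 2 each, and Glb1 holds 1.

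A promoter window (250 bases before to 50 after the start) was found for 40 of the 49 members. CACGTG was present in 16 of these 40 (40.0%), against 8.09% of the 27025 genes with a window. The longer palindrome TCACGTGA, which contains the shorter one, was present in 9 of 40 (22.5%) against 1.1% of genes. Both motifs read the same on either strand, so 1 search covered both strands, and windows were not matched for base composition. CACGTG was found for 4 of 11 V-ATPase genes, 8 of 19 hydrolases and 4 of 10 membrane, transport and regulator genes. Among the other lysosomal lists it was found for 0 of 8 V-ATPase subunit genes, 2 of 6 assembly genes, 3 of 19 hydrolases, 3 of 16 membrane and sorting genes and 4 of 14 genes of the MiT/TFE list. A match describes the letters of the window and not binding.

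In WT cultures, most genes of the proton pump rose in R40D3. Of its 16 genes, 14 rose, 1 fell and 1 did not pass the test, and the median log2 fold change was 1.05, against 0.01 over all 14030 genes tested. Hydrolases went both ways, with 5 that rose, 5 that fell and 12 that did not pass, and a median of -0.12. Of the 11 membrane, transport and regulator genes, 1 rose and 2 fell, with a median of -0.05. With the replicate number as a block, 8 hydrolases fell and 3 genes of the last class rose, while the pump counts stayed at 14 and 1. Under that block 16.7% of all genes rose and 11.6% fell. Together 20 of 49 members rose and 8 fell by edgeR's quasi-likelihood test at a Benjamini-Hochberg adjusted p under 0.05. Across all genes 11.4% rose and 5.52% fell, 16.9% in all. The libraries of R40D3 and R0D3 did not overlap for 27 members higher and 16 lower in R40D3, against 32.9% and 29.2% of all genes. In bulk RNA, a change in the number of cells of a type and a change in RNA per cell cannot be told apart. All 9 osteoclast markers rose in the same comparison, with a median log2 fold change of 10.4, and their part in these results was not tested.

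**Figure D1:**
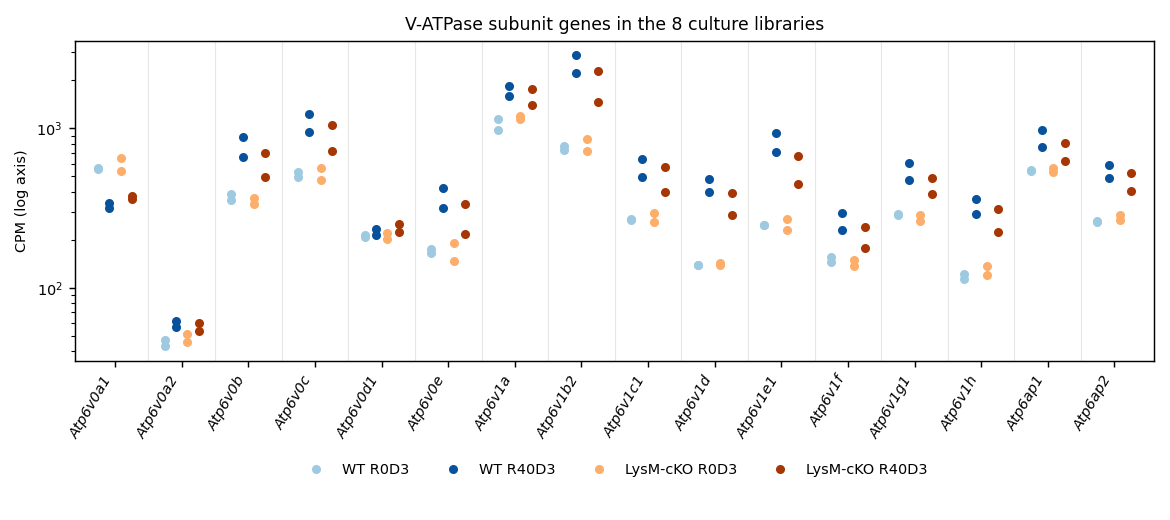
Normalised read counts (CPM, log axis) of the V-ATPase genes in each culture library, with 1 point per library and groups marked by colour. Points of WT R40D3 lie above those of WT R0D3 for 15 of the 16 genes and below them for Atp6v0a1.

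All 8 V1 subunit genes rose, with log2 fold changes from 0.70 to 1.75. Atp6v1b2, the B subunit of the ATP-splitting head, was 776 and 736 CPM in WT R0D3 and 2211 and 2873 CPM in WT R40D3. Both R40D3 libraries lay far above both R0D3 libraries (log2 fold change 1.75, SE 0.24, edgeR adjusted p = 0.003426). Atp6v1e1, a subunit of the peripheral stalk, went from 249 CPM in both R0D3 libraries to 707 and 934 CPM (log2 fold change 1.72, SE 0.21, edgeR adjusted p = 0.002291). Atp6v1d, part of the central rotor, measured 139 CPM in both R0D3 libraries and 397 and 484 CPM in R40D3. It had the smallest adjusted p of the 49 genes (log2 fold change 1.67, SE 0.16, edgeR adjusted p = 0.001004).

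The remaining V1 genes rose less. Atp6v1h, the H subunit that regulates the pump, was 123 and 113 CPM in R0D3 and 292 and 360 CPM in R40D3 (log2 fold change 1.47, SE 0.18, edgeR adjusted p = 0.002141). Atp6v1c1, the C subunit at the joint between the sectors, was 271 and 266 CPM and then 497 and 646 CPM (log2 fold change 1.09, SE 0.19, edgeR adjusted p = 0.009131). Atp6v1g1, another stalk subunit, was 286 and 290 CPM and then 477 and 604.5 CPM (log2 fold change 0.91, SE 0.15, edgeR adjusted p = 0.007026). In each of these the groups did not overlap and R40D3 replicate 2 was the highest library. Atp6v1a, the catalytic A subunit, was 1147 and 975 CPM in R0D3 and 1603 and 1844 CPM in R40D3. It had the smallest change of the V1 genes (log2 fold change 0.70, SE 0.16, edgeR adjusted p = 0.02145).

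The V0 sector was split: 4 of its 6 genes rose, 1 fell and 1 did not pass the test. The proteolipid ring that carries protons rose in both of its members. Atp6v0c was 497 and 529 CPM in R0D3 and 942 and 1236 CPM in R40D3 (log2 fold change 1.09, SE 0.21, edgeR adjusted p = 0.01233). Reads of its pseudogene Atp6v0c-ps2 numbered at most 237 per library. Atp6v0b was 355 and 386 CPM and then 660 and 878 CPM (log2 fold change 1.05, SE 0.19, edgeR adjusted p = 0.01023). The accessory subunit Atp6ap2, also known as the prorenin receptor, was 258 and 263 CPM and then 485 and 592 CPM (log2 fold change 1.05, SE 0.15, edgeR adjusted p = 0.003936). The called genes not given values here were Atp6v0e, Atp6v1f and Atp6ap1, all higher in R40D3.

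Among the genes for the a subunit, which anchors the stalk in the membrane, the members went opposite ways. Atp6v0a1 was 555 and 568 CPM in WT R0D3 and 342 and 318 CPM in WT R40D3, the only pump gene on the list that fell (log2 fold change -0.77, SE 0.11, edgeR adjusted p = 0.004304). Tcirg1, not on the list of 49, was 428 and 443 CPM and then 871 and 1135 CPM (log2 fold change 1.20, SE 0.18, edgeR adjusted p = 0.005113). Atp6v0a2 was 47.3 and 43.1 CPM in R0D3 and 57.0 and 61.9 CPM in R40D3, with no overlap. Its edgeR adjusted p of 0.04345 (log2 fold change 0.39, SE 0.11) became 0.05247 with size factors of the median-of-ratios kind, 0.07472 in DESeq2 and 0.1335 without the filter. Atp6v0a4 was at or near 0 in every culture.

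Per kilobase of exon, Atp6v0a1 made up 45.8% and 45.7% of the summed CPM of the 4 a-subunit genes in WT R0D3, and 20.9% and 15.9% in WT R40D3. The share of Tcirg1 went from 50.4% and 50.9% to 75.7% and 81.0%. In LysM-cKO the Tcirg1 share was 50.2% and 45.9% in R0D3 and 69.0% and 74.8% in R40D3. For the d subunit, which joins the rotor to the ring, the genes also differed. Atp6v0d1 did not pass the test, at 209 and 214 CPM in WT R0D3 and 233 and 214 CPM in WT R40D3 (log2 fold change 0.08, SE 0.09, edgeR adjusted p = 0.6235), while Atp6v0d2 went from 275 and 205 CPM to 870 and 1117 CPM (log2 fold change 2.05, SE 0.25, edgeR adjusted p = 0.00219). Atp6v0d2 thus held 46.5% and 38.8% of the d-subunit CPM per kilobase in WT R0D3 and 71.1% and 77.5% in WT R40D3. In LysM-cKO it held 41.9% and 36.8% and then 61.0% and 68.6%. Tests were run on the levels and not on the shares.

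**Figure D2:**
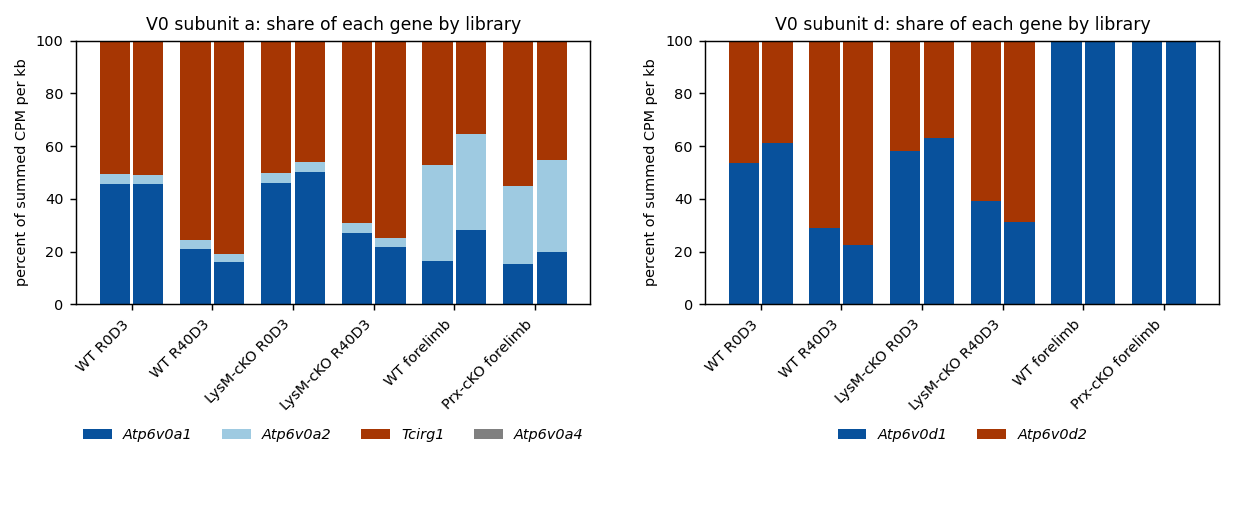
Share (%) of each gene in the summed CPM per kilobase of exon of the a-subunit genes and of the d-subunit genes, with 1 bar per library and replicate 1 on the left of each pair. Tcirg1 and Atp6v0d2 hold larger shares in every R40D3 library than in any R0D3 library, and in the forelimb Atp6v0d1 holds nearly all of the d-subunit total.

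Among the hydrolases that rose in WT R40D3, the largest log2 fold changes were those of a galactosidase and a sphingomyelinase. Glb1, the lysosomal beta-galactosidase (chromosome 9, 114401076 to 114474898 on GRCm38), was 65.8 and 70.6 CPM in WT R0D3 and 175.5 and 216 CPM in WT R40D3 (log2 fold change 1.52, SE 0.19, edgeR adjusted p = 0.002471). Smpd1, acid sphingomyelinase, was 55.3 and 48.4 CPM and then 121 and 145 CPM (log2 fold change 1.36, SE 0.17, edgeR adjusted p = 0.002281). For both genes every R40D3 library lay above every R0D3 library. Manba, the beta-mannosidase, was 86.8 and 80.7 CPM and then 122 CPM in both libraries (log2 fold change 0.54, SE 0.09, edgeR adjusted p = 0.006694). Gaa, the enzyme that degrades lysosomal glycogen, was 153 and 145.5 CPM and then 216 and 197.5 CPM (log2 fold change 0.47, SE 0.09, edgeR adjusted p = 0.01065). Naglu, an enzyme of heparan sulfate breakdown, was 172 and 166 CPM and then 213 and 218 CPM (log2 fold change 0.35, SE 0.08, edgeR adjusted p = 0.02333), a call lost when no filter was used.

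The hydrolases that fell included 2 cysteine cathepsins and enzymes of lipid and sugar breakdown. Lipa, lysosomal acid lipase, was 2165 and 2301 CPM in WT R0D3 and 1330 and 1132 CPM in WT R40D3 (log2 fold change -0.86, SE 0.14, edgeR adjusted p = 0.007114). Ctss, a cathepsin known from antigen presentation, was 2476 and 2551 CPM and then 1671 and 1369 CPM (log2 fold change -0.73, SE 0.14, edgeR adjusted p = 0.01231). Gla, alpha-galactosidase A, was 192 and 184.5 CPM and then 131 and 105 CPM (log2 fold change -0.67, SE 0.13, edgeR adjusted p = 0.0114). In these genes both R40D3 libraries lay below both R0D3 libraries. Fuca1, a fucosidase, was 196 and 205 CPM and then 143 CPM in both libraries (log2 fold change -0.49, SE 0.09, edgeR adjusted p = 0.01231). Ctsl, an endopeptidase, varied most between replicates, at 1942 and 1262 CPM in R0D3 and 851 and 550 CPM in R40D3 (log2 fold change -1.19, SE 0.30, edgeR adjusted p = 0.03393). Of its exon bases, 26.8% are shared with Gm47123, a gene model counted at 0 in every culture.

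The most abundant proteases, Ctsd and Ctsb, did not pass this test. Ctsd, an aspartic protease, was 10970 and 12220 CPM in WT R0D3 and 7067 and 7215 CPM in WT R40D3 (log2 fold change -0.70, SE 0.22, edgeR adjusted p = 0.06749). In this gene model 34.4% of the exon bases are shared with the gene model Gm49369. Ctsb was 22890 and 20320 CPM and then 13530 and 10280 CPM (log2 fold change -0.86, SE 0.27, edgeR adjusted p = 0.07147). For both genes the groups did not overlap. With the replicate number as a block, the edgeR adjusted p was 0.01083 for Ctsd and 0.01015 for Ctsb, which places both past the threshold. The summed CPM of the 22 hydrolases was lower in WT R40D3, at 33150 and 29700 CPM against 48950 and 47170 CPM in R0D3. Ctsb and Ctsd held the largest parts of this sum. A further list of 29 lysosomal hydrolases, which includes Ctsk and Acp5, went the other way. It summed to 8610 and 8291 CPM in WT R0D3 and to 21860 and 29930 CPM in WT R40D3, so hydrolase transcripts as a whole were not shown to fall. Macrophage markers, which are not lysosomal genes, had a median log2 fold change of -0.49 in the same comparison. Of the 9, 8 were negative, 7 were lower without overlap between groups, and 1 fell by the test, or 6 with the replicate block. Their part in the hydrolase values was not tested. The 16 pump genes summed to 5772 and 5644 CPM in WT R0D3 and to 10210 and 12740 CPM in WT R40D3.

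Among the membrane, transport and regulator genes, Igf2r rose and Lamp2 and Tfeb fell. Igf2r, the mannose 6-phosphate receptor that delivers hydrolases to lysosomes, was 279 and 253.5 CPM in WT R0D3 and 392 and 386 CPM in WT R40D3 (log2 fold change 0.55, SE 0.10, edgeR adjusted p = 0.01146). Lamp2, a glycoprotein that lines the lysosomal membrane, was 957.5 and 886 CPM and then 661 and 538 CPM (log2 fold change -0.62, SE 0.13, edgeR adjusted p = 0.01541). Tfeb, the transcription factor, was 38.5 and 39.9 CPM and then 29.9 and 26.1 CPM (log2 fold change -0.48, SE 0.10, edgeR adjusted p = 0.01854). Each of these had groups that did not overlap. Lamp1, the other main membrane glycoprotein, was 4182 and 3933 CPM in R0D3 and 3306 and 2742 CPM in R40D3 and did not pass (log2 fold change -0.42, SE 0.17, edgeR adjusted p = 0.1498).

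**Figure D3:**
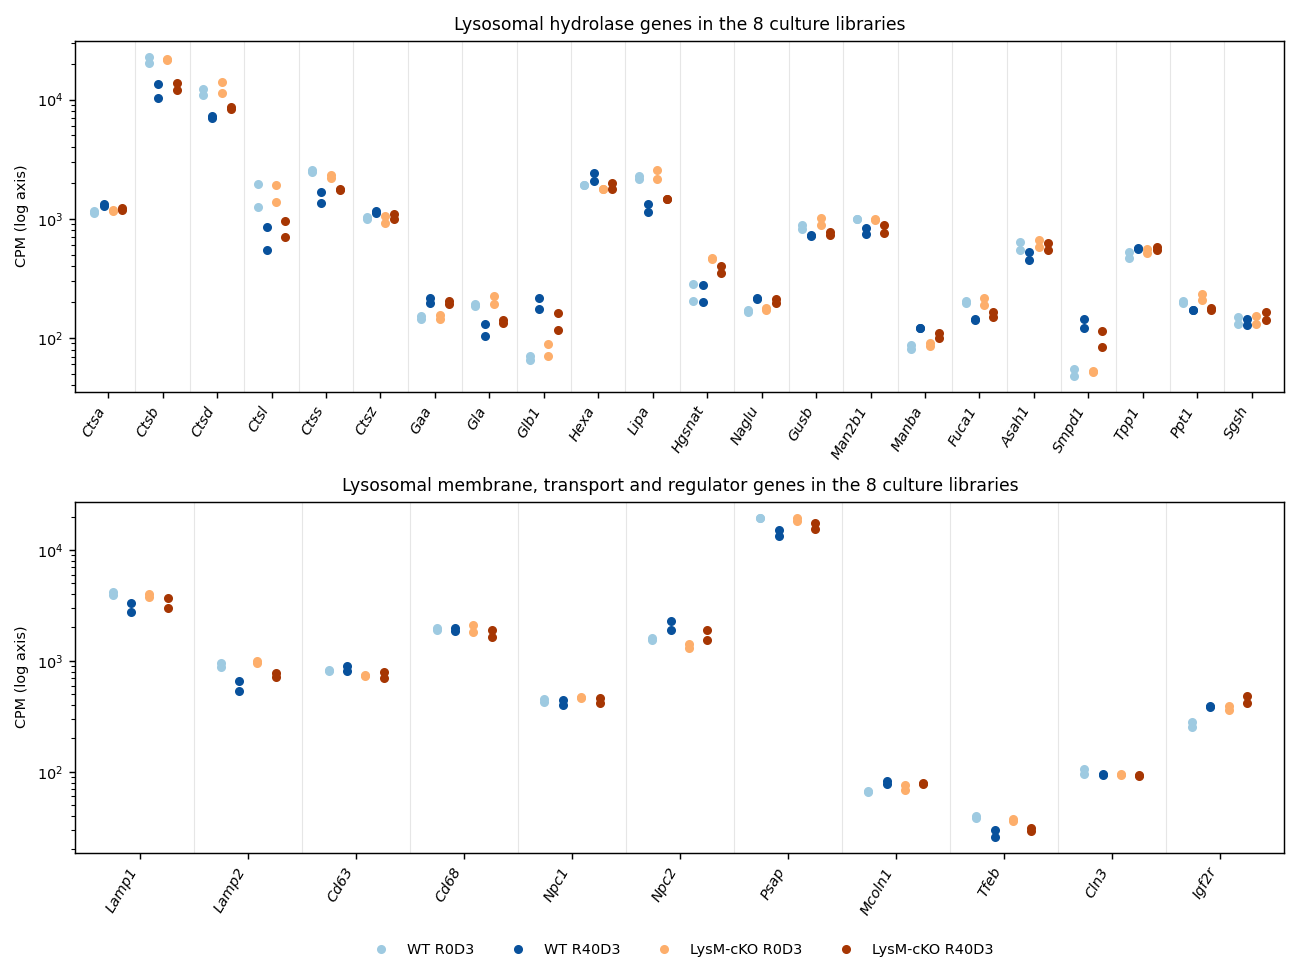
Normalised read counts (CPM, log axis) of the hydrolases and of the membrane, transport and regulator genes in each culture library, with 1 point per library and groups marked by colour. R40D3 points lie above R0D3 points for Glb1 and Smpd1 and below them for Ctsb, Ctsd and Lipa.

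The number of calls in WT depended on single libraries, since each group held 2. Of the 28 members called, 8 to 23 were called when 1 of the 4 libraries was left out. Without R0D3 replicate 1 there were 10, without R0D3 replicate 2 there were 8, without R40D3 replicate 2 there were 8 and without R40D3 replicate 1 there were 23. The number of V-ATPase genes called higher was 5 in the first 3 of these fits and 13 in the last. The share of all genes called also dropped, from 16.9% to 5.46%, 5.47%, 4.71% and 11.6% in the same order. The median of the V-ATPase genes lay between 0.81 and 1.19 in these fits. With both replicate 2 libraries of LysM-cKO left out, the WT count stayed at 28.

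Per kilobase of exon, the order of levels in WT R0D3 was led by Psap, the precursor of the saposins, at 7051 CPM per kilobase, followed by Ctsd at 4933, Ctsb at 3571 and Ctss at 1851 CPM per kilobase. The lowest levels were those of Atp6v0a2 at 6.72 and Tfeb at 6.91 CPM per kilobase. In WT R40D3 the first 3 stayed in that order, at 5191 for Psap, 3037 for Ctsd and 1968 CPM per kilobase for Ctsb. The highest pump gene was Atp6v1g1 in R0D3 (254 CPM per kilobase) and Atp6v1b2 in R40D3 (479 CPM per kilobase), with Atp6v1g1 next to it at 477 CPM per kilobase. The levels of these 2 genes overlapped between their R40D3 libraries. Exon lengths are from GENCODE M21, so the order is approximate.

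Other lysosomal genes were taken from 5 lists that share no gene with the 49. Some of them changed more in WT than any of the 49, but the median log2 fold change of these lists was -0.11. Of 75 genes tested out of 82, 13 rose and 8 fell in R40D3, or 17 and 21 with the replicate block. Over all genes 11.4% rose and 5.52% fell, or 16.7% and 11.6% with the block. Of 9 other V-ATPase subunit genes, 3 were tested, and the 2 that rose were Tcirg1 and Atp6v0d2. Of 28 other hydrolases tested, 6 rose and 5 fell. Acp5, the tartrate-resistant acid phosphatase of osteoclasts, was 15.8 and 13.1 CPM in WT R0D3 and 5668 and 9379 CPM in WT R40D3 (log2 fold change 9.02, SE 0.51, edgeR adjusted p = 0.0001609). Ctsk, the collagen-cleaving cathepsin of osteoclasts, was 60.6 and 40.3 CPM and then 7453 and 11630 CPM (log2 fold change 7.56, SE 0.65, edgeR adjusted p = 0.0007081). Arsb, a sulfatase of glycosaminoglycan breakdown, was 29.7 and 36.0 CPM and then 1080 and 1564 CPM (log2 fold change 5.33, SE 0.43, edgeR adjusted p = 0.0005437). Acp5 and Ctsk are also on the list of osteoclast markers. Galc and Galns, which degrade galactolipids and keratan sulfate, fell, with log2 fold changes of -0.78 and -0.81.

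Of 21 other membrane and sorting genes, 4 rose and 2 fell. Gnptab, which builds the mannose 6-phosphate tag, rose with a log2 fold change of 2.23 (edgeR adjusted p = 0.001609). Clcn7 and Ostm1, the 2 subunits of the lysosomal chloride-proton exchanger, rose by log2 fold changes of 1.09 and 0.65, and M6pr, the smaller mannose 6-phosphate receptor, by 0.73. Sort1, the sorting receptor sortilin, fell (log2 fold change -1.09, edgeR adjusted p = 0.005203). Of 8 assembly and regulation genes, Dmxl1 rose (log2 fold change 0.48, edgeR adjusted p = 0.02653). Of 15 genes of the MiT/TFE factors and nutrient sensing, Mitf fell (log2 fold change -0.40, edgeR adjusted p = 0.04214) and none rose.

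In LysM-cKO cultures fewer members passed the test than in WT. Of 49 members, 11 rose and 4 fell in R40D3 against R0D3, where 6.99% of all genes rose and 3.15% fell, 10.1% in all. The libraries did not overlap for 24 members higher and 17 lower, against 27.3% and 22.5% of all genes. The pump gave 8 that rose and 1 that fell of 16, with a median log2 fold change of 0.73. Hydrolases gave 3 that rose (Smpd1, Gaa, Glb1) and 3 that fell (Lipa, Gla, Fuca1) of 22, with a median of -0.18. None of the 11 membrane, transport and regulator genes passed, and their median was -0.07. All 9 osteoclast markers rose in this comparison, with a median log2 fold change of 9.62. Of the 9 macrophage markers, 7 were negative and 2 positive, with a median of -0.38, and 2 fell by the test. The part of these cell markers in the results was not tested.

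Atp6v1d was 139 and 143 CPM in LysM-cKO R0D3 and 286 and 393 CPM in R40D3 (log2 fold change 1.27, SE 0.16, edgeR adjusted p = 0.004358). Atp6v1b2 was 717 and 853 CPM and then 1453 and 2286 CPM (log2 fold change 1.25, SE 0.23, edgeR adjusted p = 0.01751). Atp6v0a1 was 540 and 652 CPM and then 363 and 374 CPM (log2 fold change -0.69, SE 0.11, edgeR adjusted p = 0.01032). In all 3 genes the groups did not overlap. The remaining pump genes that rose were Atp6v1h (1.05), Atp6v1e1 (1.16), Atp6v1c1 (0.83), Atp6v0b (0.78), Atp6ap2 (0.74) and Atp6v1g1 (0.68), where the values are log2 fold changes. Atp6v1a was 1148 and 1191 CPM in R0D3 and 1402 and 1762 CPM in R40D3 and did not pass (log2 fold change 0.44, SE 0.16, edgeR adjusted p = 0.1374).

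Among hydrolases of LysM-cKO, Smpd1 was 53.0 and 51.5 CPM in R0D3 and 83.9 and 115 CPM in R40D3 (log2 fold change 0.93, SE 0.16, edgeR adjusted p = 0.01458). Glb1 was 70.3 and 89.3 CPM and then 117 and 163 CPM (log2 fold change 0.81, SE 0.19, edgeR adjusted p = 0.03689). Lipa was 2175 and 2570 CPM and then 1457 and 1469 CPM (log2 fold change -0.70, SE 0.14, edgeR adjusted p = 0.0239). The groups of each gene did not overlap. Tfeb, at 37.3 and 35.8 CPM and then 31.3 and 29.0 CPM, did not pass (log2 fold change -0.28, SE 0.10, edgeR adjusted p = 0.1518), nor did Lamp1 (-0.21, edgeR adjusted p = 0.5243), Ctsd (-0.57, edgeR adjusted p = 0.155) or Atp6v0d1 (0.16, edgeR adjusted p = 0.355).

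The LysM-cKO count was sensitive to the fit and to single libraries. With the replicate number as a block, 16 members rose and 10 fell, 13 of the former being pump genes and 8 of the latter hydrolases, where 13.0% of all genes rose and 8.22% fell. Members called only with the block are not named here, and some given above as not passing may be among them. DESeq2 called 25 members and 11.7% of all genes. Leaving out 1 library gave 4 (R0D3 replicate 1), 1 (R0D3 replicate 2), 14 (R40D3 replicate 1) or 3 calls (R40D3 replicate 2). The share of all genes called was 5.16%, 2.72%, 9.08% and 3.25% in these fits, against 10.1% with every library. Without both replicate 2 libraries, those with low stromal markers, 1 member and 2.14% of all genes were called. The calls of Gaa and Glb1 (both at an edgeR adjusted p of 0.05071), Atp6v0b (0.05595) and Fuca1 (0.0777) were lost without the filter. Atp6v0b (0.05035) also lost its call with size factors of the median-of-ratios kind, and Fuca1 (0.0509) with legacy = TRUE. With only the 4 compared libraries in the fit, 2 members and 3.92% of all genes were called. Of the 75 other lysosomal genes tested, 10 rose and 5 fell in LysM-cKO (15 and 9 with the block), with Acp5 (8.33), Ctsk (7.0) and Arsb (4.05) giving the largest log2 fold changes. Tcirg1 (0.90) and Atp6v0d2 (1.70) rose here too.

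The changes of the 49 genes had the same sign in both genotypes for 48 of them. They were smaller in size in LysM-cKO for 42 of 49 genes, and for 15 of the 16 pump genes. Across genes, the WT and LysM-cKO log2 fold changes had a Pearson correlation of 0.984, given as a description over genes that are not independent replicates. It was 0.992 within the pump genes and 0.972 within the hydrolases. The 2 changes share no library. Over all genes tested the median was 0.01 in either genotype. The counts of sign and size and the correlation were not made over all genes, so they are not given as particular to these 49. Of all genes tested, 16.9% were called in WT and 10.1% in LysM-cKO.

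**Figure D4:**
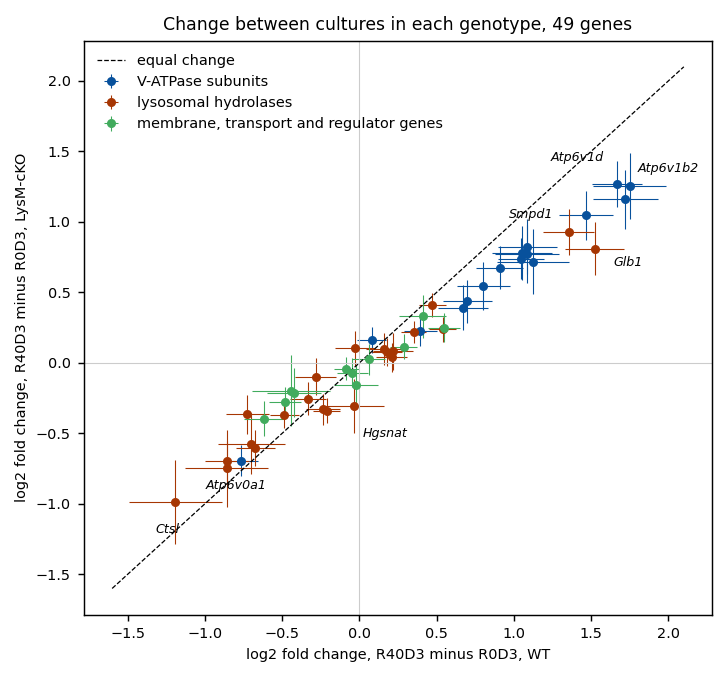
Log2 fold change of R40D3 over R0D3 in WT (horizontal axis) and in LysM-cKO (vertical axis) for the 49 genes, coloured by class, with bars of 1 standard error and the dashed line of equal change. Most genes, 42 of 49, had the smaller change in LysM-cKO, a count that was not made over all genes. The pump genes lie at the upper right apart from Atp6v0a1.

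Compared directly at R40D3, no member passed the test between LysM-cKO and WT. In edgeR 0 of 49 passed, 7 had an unadjusted p under 0.05, and DESeq2 called 0. Across all genes 0.0143% passed, which were 2 genes that fell, one of them Impdh2, and 7.47% had an unadjusted p under 0.05. The libraries of the genotypes did not overlap for 12 members higher and 10 lower in LysM-cKO, against 19.7% and 18.9% of all genes. The 16 pump genes had a median log2 difference of -0.29, with 14 negative and 2 positive, against a median of -0.01 over all genes. It ranged from -0.54 to -0.06 when 1 library was left out and was -0.54 without both LysM-cKO replicate 2 libraries. Of the 16 pump genes, 2 were lower and 1 was higher in LysM-cKO without overlap, and 13 overlapped between the genotypes. Pump genes summed to 10210 and 12740 CPM in WT and to 7887 and 10840 CPM in LysM-cKO, so the sums overlapped too. The hydrolases had a median of 0.06.

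The 3 members with the smallest p at R40D3 did not pass the adjusted test. Hgsnat, a membrane enzyme of heparan sulfate breakdown (chromosome 8, 25944453 to 25976753), was 200 and 277 CPM in WT and 398 and 354 CPM in LysM-cKO, without overlap (log2 difference 0.66, SE 0.19, edgeR adjusted p = 0.6476). Atp6v1e1 was 707 and 934 CPM in WT and 450 and 668 CPM in LysM-cKO, also without overlap (log2 difference -0.55, SE 0.20, edgeR adjusted p = 0.6476). Glb1 was 175.5 and 216 CPM in WT and 117 and 163 CPM in LysM-cKO, again without overlap (log2 difference -0.49, SE 0.19, edgeR adjusted p = 0.6476). Among the reference members, the log2 difference was -0.12 for Atp6v1a (SE 0.16), 0.09 for Atp6v0d1 (SE 0.09), 0.25 for Ctsd (SE 0.22), 0.14 for Lamp1 (SE 0.17) and 0.11 for Tfeb (SE 0.10).

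Osteoclast markers were measured beside these values. Their sum was 25190 and 37400 CPM in WT R40D3 and 12450 and 23780 CPM in LysM-cKO R40D3, and all 9 had a negative log2 difference, from -0.95 to -0.57. In edgeR 0 of the 9 passed, with a smallest adjusted p of 0.6476, or 0.002824 with the replicate block, under which 2 passed. With that block 0.214% of all genes passed. Cycling-cell markers summed to 130 and 120 CPM in WT and 168 and 326 CPM in LysM-cKO. All 6 of them had a positive log2 difference (median 0.96), 4 without overlap and 2 with it, and 0 passed in edgeR. Neutrophil and granulocyte precursor markers summed to 315 and 68.2 CPM in WT and 111 and 51.75 CPM in LysM-cKO. All 5 tested had a negative log2 difference (median -1.24), but 4 overlapped between the genotypes. The part of these cell differences in the pump values was not tested.

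At R0D3, the members with the smallest p were Hgsnat and Igf2r, and neither passed the edgeR test. In edgeR 0 of 49 passed and 2 had an unadjusted p under 0.05, against 0.0143% and 4.42% of all genes. Hgsnat was 205 and 282 CPM in WT and 469 and 460 CPM in LysM-cKO (log2 difference 0.93, SE 0.19, edgeR adjusted p = 0.9974). DESeq2 gave Hgsnat an adjusted p of 0.00642, the 1 member it called, where it called 0.0499% of all genes. Every LysM-cKO culture thus had more Hgsnat than every WT culture, with a lowest value of 354 CPM against a highest of 282 CPM. Igf2r was 279 and 253.5 CPM in WT and 362 and 394 CPM in LysM-cKO, without overlap (log2 difference 0.51, SE 0.10, edgeR adjusted p = 0.9974).

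The third smallest p at R0D3 was that of Ppt1, which removes fatty acids from proteins, at 195 and 203 CPM in WT and 208 and 236 CPM in LysM-cKO (log2 difference 0.16, SE 0.09, edgeR adjusted p = 0.9974). The pump genes had a median log2 difference of 0.02, between -0.06 and 0.10 when 1 library was left out. The reference members differed by 0.14 (Atp6v1a, SE 0.16), 0.01 (Atp6v0d1, SE 0.09), 0.13 (Ctsd, SE 0.22), -0.07 (Lamp1, SE 0.17) and -0.10 (Tfeb, SE 0.10) on the log2 scale. In R0D3, the pump genes summed to 5772 and 5644 CPM in WT and to 5562 and 6215 CPM in LysM-cKO, so the groups overlapped. Cycling-cell markers summed to 163 and 258 CPM in WT R0D3 and to 265 and 611 CPM in LysM-cKO R0D3. All 6 had a positive log2 difference (median 1.02), 2 without overlap and 4 with it. All 5 tested neutrophil and granulocyte precursor markers were negative (median -0.70), and 4 overlapped. In edgeR 0 of these markers passed, and their part in the member values was not tested.

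**Figure D5:**
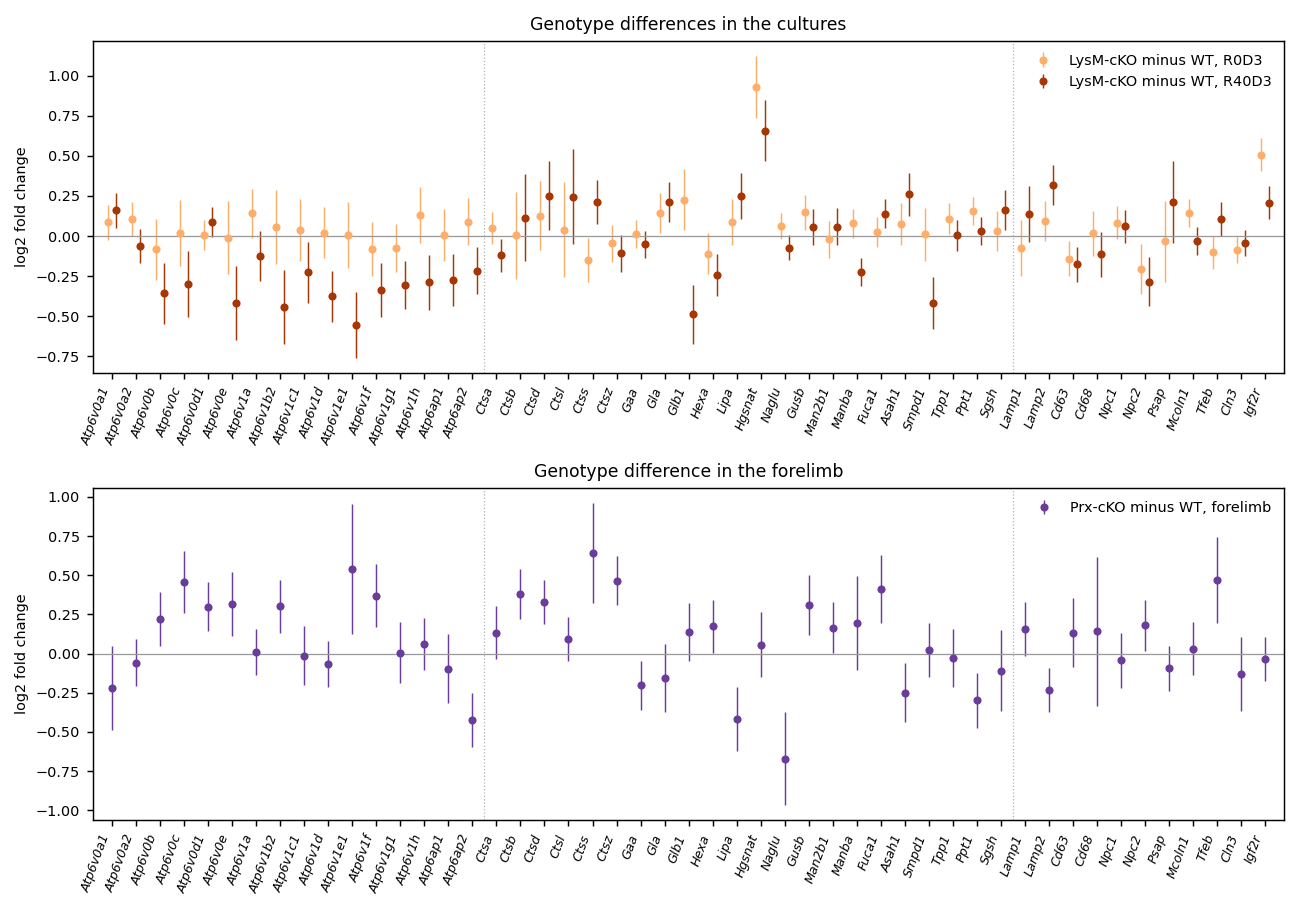
Log2 difference between genotypes for each of the 49 genes, with LysM-cKO minus WT at R0D3 and R40D3 in the upper panel and Prx-cKO minus WT in the forelimb in the lower panel, and bars of 1 standard error from edgeR. Dotted lines separate pump genes, hydrolases and other genes. At R40D3, 14 of the 16 pump genes lie below 0, though the libraries of the genotypes overlap for 13 of the 16. Hgsnat lies above 0 in both cultures.

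Whether the genotypes differed in their response was tested with an interaction term. By edgeR 0 of 49 members passed and 2 had an unadjusted p under 0.05, and DESeq2 called 0. Across all genes 0.0% passed and 1.77% had an unadjusted p under 0.05. The smallest p values were those of Glb1 (log2 interaction -0.71, SE 0.26), Manba (-0.30, SE 0.12) and Igf2r (-0.30, SE 0.15), each with an edgeR adjusted p of 0.9999. The median of the pump genes was -0.28, against -0.02 over all genes. The smaller changes in LysM-cKO described above were thus not shown to differ from those in WT for any single member. For the reference members the interaction was -0.26 for Atp6v1a, 0.08 for Atp6v0d1, 0.13 for Ctsd, 0.21 for Lamp1 and 0.21 for Tfeb on the log2 scale.

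Of the 75 other lysosomal genes, edgeR called 0 between the genotypes at R40D3, at R0D3 or in the interaction, with 3, 2 and 2 at an unadjusted p under 0.05. Across all genes the shares at an unadjusted p under 0.05 were 7.47%, 4.42% and 1.77%. DESeq2 called 1 at R40D3, Sort1, and 0 in the other 2 comparisons. It called 0.164% of all genes at R40D3, 0.0499% at R0D3 and 0.0% in the interaction. At R40D3 it gave no adjusted p for 4624 genes.

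In the embryonic forelimb the summed levels of each class were lower than in the cultures, though single genes such as Atp6v0a2 (58.5 and 53.7 CPM in WT) were not. The 22 hydrolases summed to 941 and 959.5 CPM in the WT forelimb, the pump genes to 987 and 930 CPM and the remaining genes to 1274 and 1203 CPM. Cultures and forelimbs come from separate tables, and no test was made between them. Limb mesenchyme markers, 6 genes, summed to 1180 and 1363 CPM in WT and 856 and 895 CPM in Prx-cKO, with 3 negative log2 differences (Prrx1, Tbx5, Hoxd13) and 3 positive ones (Twist1, Msx1, Meis1). Among a-subunit genes, the share of CPM per kilobase in the WT forelimb was 16.7% and 28.2% for Atp6v0a1, 36.4% and 36.2% for Atp6v0a2 and 46.9% and 35.4% for Tcirg1.

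Between Prx-cKO and WT forelimbs, edgeR called 0 of 49 members, with 1 at an unadjusted p under 0.05, and DESeq2 called 0. Across all genes edgeR called 0.0%, 10.5% had an unadjusted p under 0.05, and DESeq2 called 1.95%. Ctsz, a carboxypeptidase, was 75.2 and 69.2 CPM in WT and 93.5 and 106 CPM in Prx-cKO (log2 difference 0.47, SE 0.15, edgeR adjusted p = 0.4565). Atp6ap2 was 37.2 and 32.5 CPM in WT and 26.2 and 25.7 CPM in Prx-cKO (log2 difference -0.42, SE 0.17, edgeR adjusted p = 0.4786). Ctsb was 132 and 150 CPM in WT and 170.5 and 196 CPM in Prx-cKO (log2 difference 0.38, SE 0.16, edgeR adjusted p = 0.4916). In these 3 genes the groups did not overlap. Over all members the groups did not overlap for 16 that were higher and 9 that were lower in Prx-cKO, against 22.2% and 21.0% of all genes.

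The pump genes had a median log2 difference of 0.04 in the forelimb and the hydrolases one of 0.11, against -0.03 over all genes. With libraries scaled by size alone, the median over all genes was -0.13 and that of the pump genes -0.06, so the latter changed sign. The reference members differed by 0.01 (Atp6v1a, SE 0.15), 0.30 (Atp6v0d1, SE 0.16), 0.33 (Ctsd, SE 0.14), 0.16 (Lamp1, SE 0.17) and 0.47 (Tfeb, SE 0.27) on the log2 scale. Macrophage markers were measured beside the cathepsins. Their sum was 39.8 and 46.4 CPM in WT and 96.7 and 95.6 CPM in Prx-cKO, 8 of 9 had a positive log2 difference, 7 of 9 did not overlap, and none was at 0 in any forelimb library. None of the 9 passed (smallest edgeR adjusted p = 0.3197). Skeletal muscle markers summed to 260 and 262.5 CPM in WT and 726 and 354 CPM in Prx-cKO, with 4 of 5 higher without overlap. Endothelial markers summed to 104 and 112 CPM in WT and 138.5 and 142 CPM in Prx-cKO, with 5 of 5 higher without overlap. In edgeR 0 of these passed. The part of these cell differences in the cathepsin values was not tested. Of 77 other lysosomal genes tested in the forelimb, edgeR called 0 and DESeq2 called 0, with 8 at an unadjusted p under 0.05 in edgeR.

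Within the cultures, the calls were also counted for members with and without CACGTG in the window. Of the 16 with it, 7 rose, 2 fell and 7 did not pass in WT (median log2 fold change 0.25). Of the 24 without it, 8 rose, 6 fell and 10 did not pass (median 0.11). In LysM-cKO the counts were 3, 1 and 12 with it and 4, 3 and 17 without it. Over all genes tested, 11.4% rose and 5.52% fell in WT, and 6.99% rose and 3.15% fell in LysM-cKO. No such count was made for all genes with CACGTG. Both sets mix the classes, and 4 of the 11 pump genes with a window hold the motif. The difference between these members was not tested, and all but 9 of the 49 had a window. The counts therefore do not show what the motif does.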

How the data were processed

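Gene expression was measured by mRNA sequencing in 8 mouse culture libraries and 4 forelimb libraries, 2 per group. The authors deposited raw read counts per Ensembl gene. The submitters' processing notes name FastQC 0.11.2, Trimmomatic 0.36, HISAT2 2.1.0, DESeq2 1.12.4 and GRCm38. How reads were assigned to genes, with which annotation and strand setting, is not given in the sources used here, so genes that overlap another or have near copies are uncertain. Of the 49 members, 16 share exon bases with another gene of GENCODE M21, the annotation used here for positions and exon lengths.

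Counts were tested with edgeR 4.0.16 (R 4.3.3): genes kept by filterByExpr (14030 in the cultures, 19987 in the forelimb), TMM scaling, and a quasi-likelihood test (glmQLFit with legacy = FALSE), two-sided, with Benjamini-Hochberg adjustment over all genes and calls at an adjusted p under 0.05. The 8 culture libraries were fitted together and the 4 forelimb libraries alone. Log2 fold changes and their standard errors come from these fits, and CPM were computed from the deposited counts with TMM-scaled totals. The scripts were tested on simulated counts.

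The members and the other gene lists were chosen with earlier results of these data known. Named were up to 10 called members per class by smallest p in WT R40D3 against R0D3, all called members or else the 3 smallest p in the other comparisons, up to 5 genes of each further list, the a and d subunit genes, and 5 reference members (Tfeb, Lamp1, Ctsd, Atp6v1a, Atp6v0d1) throughout. Culture libraries with different replicate numbers were deposited in separate tables. Same-numbered culture libraries deviated together from their group means in all 6 pairs of groups (r 0.343 to 0.609 across genes), so the numbers were taken to pair the cultures. The main fit did not use this pairing, which enters only as the block. Counts from a blocked fit stand beside the comparisons of R40D3 with R0D3, but blocked p values are given for only some genes. Single members given as not passing may therefore pass with the block. Alternatives were other size factors, DESeq2 1.42.0, no filter, legacy = TRUE, the block, each library left out, and the compared libraries alone. Leaving out both LysM-cKO replicate 2 libraries was added after their low stromal markers were seen. Promoter windows are from RefSeq (GRCm38.p6), with 40 members matched by symbol.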

Additional observations from a re-analysis of the deposited data

Results flagged for a closer look

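In 10 members the genotype difference had one sign at R40D3 and the other at R0D3 in both same-numbered pairs of libraries, a pattern also seen in 1619 of 14030 genes (11.5%). None of them passed the test of the interaction, for which the edgeR adjusted p was 0.9999. The interaction (the difference at R40D3 less that at R0D3, on the log2 scale) was negative for 6 of them: -0.40 for Atp6v1d, -0.31 for Atp6ap2, -0.26 for Atp6v1a, -0.71 for Glb1, -0.17 for Ctsa and -0.13 for Naglu. It was positive for the other 4: 0.36 for Ctss, 0.21 for Lamp1, 0.21 for Tfeb and 0.0793 for the mannosidase Man2b1. The paired differences behind Glb1 were -0.58 to -0.41 at R40D3 and 0.10 to 0.34 at R0D3.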

How the results depend on the processing

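No called member changed direction under any alternative that was run, and only medians near 0 changed sign. In WT, leaving out 1 library gave 8 to 23 members called instead of 28 and a pump median of 0.81 to 1.19, and the other alternatives gave 27 to 34. The split of 20 higher and 8 lower in WT became 19 and 13 in DESeq2 and 18 and 13 without the filter, and that of 11 and 4 in LysM-cKO became 14 and 11 in DESeq2. With the replicate number as a block, 34 members were called in WT (28.3% of all genes) and 26 instead of 15 in LysM-cKO (21.3% of all genes). In LysM-cKO, DESeq2 called 25, the 4 compared libraries alone gave 2, both replicate 2 libraries left out gave 1, and leaving out 1 library gave 1 to 14 calls and a pump median of 0.45 to 0.96. The pump median of the genotype difference at R40D3 was -0.54 to -0.0614 with 1 library left out and -0.54 without both LysM-cKO replicate 2 libraries. At R0D3 it was -0.06 to 0.10, and DESeq2 called 1 member, Hgsnat. The pump median of the interaction was -0.26 with library size alone, -0.25 without the filter, -0.47 without both LysM-cKO replicate 2 libraries and -0.53 to -0.0624 with 1 library left out. In the forelimb, where replicates share only a number (r 0.261), the pump median was -0.0026 to 0.11 with 1 library left out and -0.06 with library size alone, and 0 members were called with the block. The block changed no call of a genotype comparison or the interaction among the members. With a library left out, 1 group had a single library, assumed to vary like the others.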
